A study of Mus musculus with 4 samples.

Results

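The S phase genes are 40 mouse genes whose transcripts accumulate while a cell copies its DNA. They were taken by symbol from the deposited feature list, and all 40 were among its 57126 features. Their counts were read in cerebral cortex cells of 4 mice, each group being 1 animal. In the embryo (E14.5) there was 1 wild type and 1 labelled as a knockout of Tsku (Tsukushi). On the day of birth (P0) there was again 1 of each. Tsukushi is a secreted small leucine-rich proteoglycan. The sources used here do not give the allele, strain or sex. The 40 genes were grouped by role into origin licensing and helicase activation (8 genes), the replication fork (10), nucleotide supply (3), histones and chromatin (8), cycle control and protein turnover (5) and DNA repair (6).

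Before S phase, Cdc6 and the Mcm subunits load onto replication origins, and Cdc45 and the GINS complex, of which Gins2 is a subunit, turn the loaded Mcm ring into an active helicase. At the fork, Pola1 and Prim1 start new strands, Pcna holds the polymerases on the DNA, and ribonucleotide reductase (Rrm1 and Rrm2) and thymidylate synthase (Tyms) supply the building blocks, while Nasp and the Chaf1b subunit of chromatin assembly factor handle the histones that package the copied DNA. Many of these genes are targets of E2F transcription factors. In the developing cortex, radial glia divide at the ventricular surface, intermediate progenitors divide away from it, and neurons have left the cell cycle.

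Tsku itself went against the label of 1 library. It had 54 counts (9.63 CPM, counts scaled to a total of 1000000) in the E14.5 wild type, 74 (5.13 CPM) in the library labelled E14.5 knockout, 42 (6.84 CPM) in the P0 wild type, and 0 in the library of the P0 knockout. Whether these counts come from an intact gene was not tested, and the genotype of the library labelled E14.5 knockout could not be settled from them. That library also stood apart in size: the files held 622, 4119, 1073 and 1456 barcodes in the order E14.5 wild type, labelled E14.5 knockout, P0 wild type and P0 knockout, the order used below, and median counts per barcode after filtering were 7345.5, 2829, 4807 and 5060. Every barcode was therefore thinned to 1500 counts, and 619, 3966, 1046 and 1435 barcodes were analysed. The libraries shared 2 barcodes in each of 3 pairs that join the E14.5 libraries and the P0 wild type, and none in the other pairs.

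Barcodes were sorted into 5 gates by summed counts of marker genes, none of which is an S phase gene: radial glia (such as Slc1a3, Fabp7 and Sox2), intermediate progenitor (Eomes, Neurog2 and others), Dlx (Dlx1, Dlx2, Dlx5, Dlx6 and Dlx6os1, genes of the interneuron lineage), Olig (Olig1 and Olig2) and neuronal (such as Neurod2, Neurod6 and Stmn2). The radial glia gate held 66, 485, 174 and 334 barcodes, the intermediate progenitor gate 71, 535, 78 and 112, the Dlx gate 88, 699, 133 and 128, and the neuronal gate 285, 1576, 415 and 436. The Olig gate held 3 barcodes in the E14.5 wild type, too few to use, and 24, 94 and 202 in the other libraries. Radial glia markers summed to 11162, 8142, 27422 and 26132 CPM in the radial glia gate. In that gate neuronal markers summed to between 268 and 394 CPM and microglial markers to at most 7.98 CPM. The gate asked for radial glia markers and left out barcodes that reached the limits for neuronal or microglial markers. These levels are therefore bounded by the gate rule and are not an independent check of it. Slc1a3, Aldoc and Fabp7 also mark astrocytes, so the gate does not tell radial glia from cells of that lineage at P0.

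The sequences of 4 promoters are shown because these genes had the most counts of the first 4 roles among the genes with a promoter entry: Mcm6 (ENSMUSG00000026355 in the files), a subunit of the replicative helicase, Pcna (ENSMUSG00000027342), the sliding clamp, Rrm1 (ENSMUSG00000030978), the large subunit of ribonucleotide reductase, and Nasp (ENSMUSG00000028693), a histone chaperone. They are RefSeq promoter windows of build GRCm38.p6, from 250 bases before to 50 bases after the gene start, printed 5′ to 3′ on the gene's strand; capitals mark matches to the motifs searched. Mcm6 lies at chr1:128359656-128359955 on the minus strand, Pcna at chr2:132253131-132253430 on the minus strand, Rrm1 at chr7:102441445-102441744 on the plus strand and Nasp at chr4:116627902-116628201 on the minus strand.
Mcm6: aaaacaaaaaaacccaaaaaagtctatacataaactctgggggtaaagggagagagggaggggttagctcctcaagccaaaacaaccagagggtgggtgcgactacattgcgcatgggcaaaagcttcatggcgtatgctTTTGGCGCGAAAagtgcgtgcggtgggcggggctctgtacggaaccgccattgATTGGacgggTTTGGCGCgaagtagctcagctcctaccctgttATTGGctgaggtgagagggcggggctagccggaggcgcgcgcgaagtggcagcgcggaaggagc
Pcna: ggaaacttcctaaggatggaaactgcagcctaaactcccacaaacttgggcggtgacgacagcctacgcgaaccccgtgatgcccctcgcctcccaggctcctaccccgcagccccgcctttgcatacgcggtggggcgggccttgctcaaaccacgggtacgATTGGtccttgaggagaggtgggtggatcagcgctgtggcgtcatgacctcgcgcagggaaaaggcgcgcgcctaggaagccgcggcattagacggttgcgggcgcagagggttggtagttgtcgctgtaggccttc
Rrm1: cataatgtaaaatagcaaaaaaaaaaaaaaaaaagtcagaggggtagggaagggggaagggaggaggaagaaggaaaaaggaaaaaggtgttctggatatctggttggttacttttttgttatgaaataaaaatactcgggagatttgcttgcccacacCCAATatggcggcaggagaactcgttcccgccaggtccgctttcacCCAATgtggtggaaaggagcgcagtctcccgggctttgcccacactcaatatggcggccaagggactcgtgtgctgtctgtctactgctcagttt
Nasp: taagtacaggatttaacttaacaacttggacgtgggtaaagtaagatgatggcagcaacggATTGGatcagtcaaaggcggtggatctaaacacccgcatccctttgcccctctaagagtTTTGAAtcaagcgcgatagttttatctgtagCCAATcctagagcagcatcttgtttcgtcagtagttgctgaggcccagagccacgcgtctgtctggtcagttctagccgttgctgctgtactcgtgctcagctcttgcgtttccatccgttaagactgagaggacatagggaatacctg

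Motifs were searched on both strands: TTTCCCGC, TTTGGCGC, TTTCGCGC and TTTGCCGC, which are forms of the E2F site, CCAAT, the box bound by NF-Y, and TTTGAA, the core of the element known as CHR. The Mcm6 window held TTTGGCGC at 110 and at 47 bases before the start, with TTTCGCGC on the opposite strand overlapping the first of them, and 2 CCAAT boxes. The Pcna window held a CCAAT box 87 bases before the start, Rrm1 held 2, and Nasp held 2 and a TTTGAA. Of the 40 genes, 30 had a window (33 windows in all); Mcm4, Gins2, Rfc2, Gmnn, Ccne2, Atad2, Exo1, Tipin, Dscc1 and Usp1 had none. Any of the E2F forms was found in 12 of the 30 genes, and in 36.4% of their windows against 2.26% of all 32851 windows in the table. Those genes were Casp8ap2, Cdc6, Cdca7, Clspn, Dtl, Hells, Mcm5, Mcm6, Pola1, Pold3, Ubr7 and Uhrf1. CCAAT was found in 66.7% of the windows of S phase genes and in 37.4% of all, and TTTGAA in 18.2% and 17.9%. A match describes the letters of a window and shows no binding.

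S phase transcripts had higher levels in every other gate used than in the neuronal gate of the same library. In the radial glia gate the 40 genes together had 4697, 6902, 2943 and 2493 CPM. In the neuronal gate they had 975, 976, 1057 and 1057 CPM. RNA free in the suspension was not measured. The Dlx gate had 4288, 3997, 4020 and 4188 CPM, with 95% intervals (exact Poisson, counting error only) that all overlapped. The intermediate progenitor gate had 1953, 3008, 2171 and 3464 CPM. The Olig gate had 7028 CPM in the library labelled E14.5 knockout, from only 24 barcodes, then 3262 and 2670 CPM at P0. The radial glia gate stood above the Dlx gate in the library labelled E14.5 knockout and below it in both P0 libraries, while in the E14.5 wild type their intervals overlapped.

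**Figure D1:**
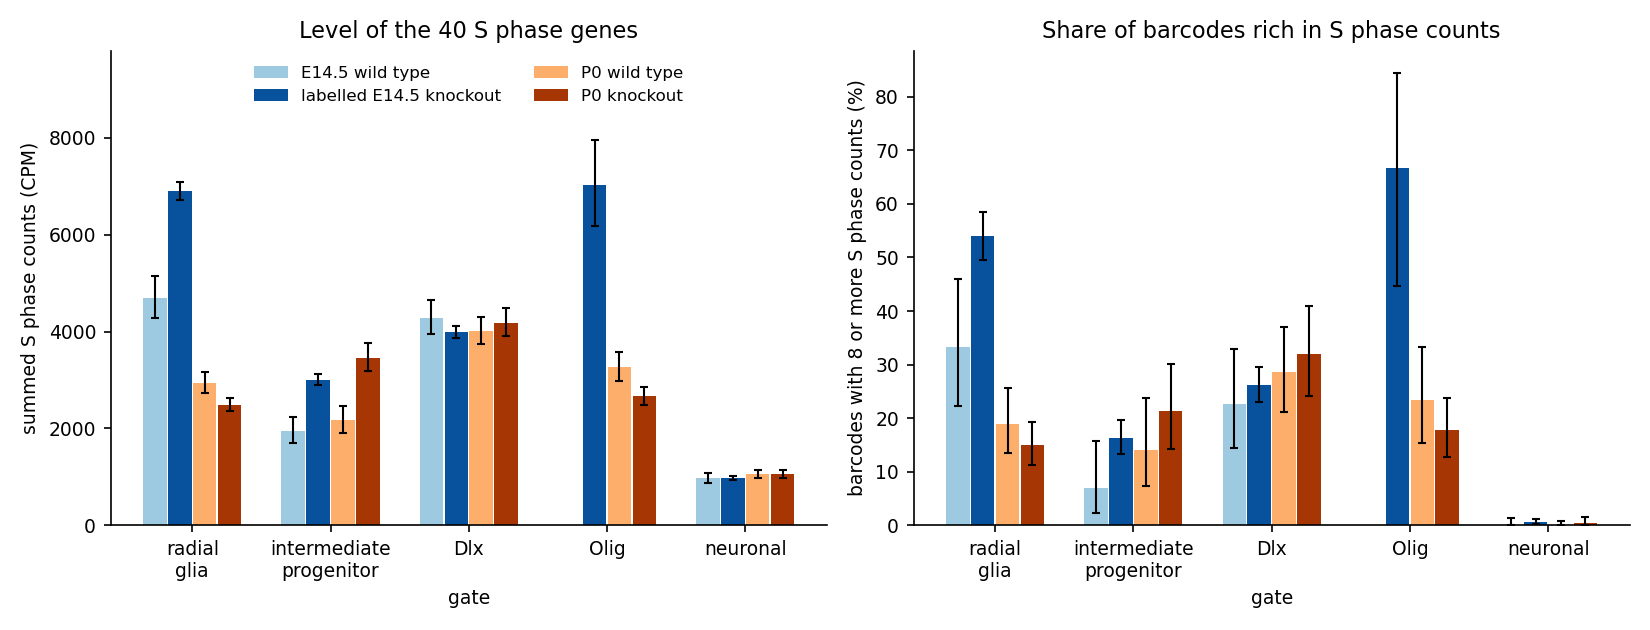
Left, summed counts of the 40 S phase genes in CPM for each gate and library, with exact Poisson 95% intervals; right, the percentage of barcodes with 8 or more S phase counts of 1500, with exact binomial 95% intervals. Radial glia are highest at E14.5 and lower at P0, the Dlx gate stays between 3997 and 4288 CPM, and neuronal barcodes stay between 975 and 1057 CPM; the E14.5 wild-type Olig gate is not drawn because it held 3 barcodes.

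The counts sat in a minority of barcodes in most gates. A barcode was called rich in S phase transcripts at 8 or more of 1500 counts, a value set after the neuronal barcodes had been seen. Rich barcodes made up 0 of 285, 10 of 1576 (0.635%), 0 of 415 and 2 of 436 (0.459%) of the neuronal gate; a limit of 3 counts of the total puts these counts of 0 at up to 1.05% in the E14.5 wild type and 0.723% in the P0 wild type, and the exact binomial intervals reach 1.29% and 0.885%. In the radial glia gate 33.3% (exact binomial 95% interval 22.2 to 46.0), 54.0% (49.5 to 58.5), 19.0% (13.4 to 25.6) and 15.0% (11.3 to 19.3) of barcodes were rich, and they held 67.7%, 82.4%, 63.7% and 57.5% of the gate's S phase counts. Rich radial glia barcodes had 9545, 10529, 9879 and 9573 CPM and the other barcodes of the gate 2273, 2640, 1319 and 1246 CPM; the threshold itself bounds both sets of levels. Rich barcodes made up 7.04%, 16.3%, 14.1% and 21.4% of the intermediate progenitor gate, 22.7%, 26.2%, 28.6% and 32.0% of the Dlx gate, and 66.7%, 23.4% and 17.8% of the Olig gate. Before thinning, the radial glia shares were 89.4%, 77.5%, 50.0% and 48.5% and the neuronal shares 46.0%, 7.30%, 22.4% and 21.1%, with median depths in the radial glia gate of 8066.5, 2953, 6105.5 and 5748.5 counts.

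Within the Dlx and intermediate progenitor gates, S phase levels were higher where neuronal marker counts were few. Within the P0 Olig gate they were higher where oligodendrocyte precursor marker counts were few. Dlx barcodes with fewer than 4 neuronal marker counts had 6190, 5775, 5150 and 5566 CPM of S phase transcripts, and those with more had 958, 1369, 2314 and 1644 CPM. At P0, Olig barcodes with fewer than 2 counts of oligodendrocyte precursor markers (Pdgfra, Cspg4, Sox10, Lhfpl3 and Gpr17) had 4830 CPM in the wild type and 4447 CPM in the knockout, against 1236 and 1456 CPM in those with 2 or more. Intermediate progenitor barcodes with few neuronal marker counts had 2543, 4022, 2423 and 3610 CPM, against 1048, 1654, 1667 and 3067 CPM in the rest. The P0 knockout split the least of the intermediate progenitor gates. At P0 the intervals of this split overlapped. They were 2090 to 2794 against 1286 to 2124 CPM in the wild type, and 3282 to 3962 against 2576 to 3623 CPM in the knockout.

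Nasp and Pcna supplied the most counts, 3342 (14.6% of the list) and 2962 (12.9%) over all gates, followed by Rrm1 (1214), Usp1 (1154), Casp8ap2 (1115), Cdca7 (939), Rrm2 (799) and Mcm6 (714); Dscc1 had the fewest, 64. These counts are not scaled to gene length and do not rank the genes by expression. Pcna, the sliding clamp, had 424, 1027, 375 and 369 CPM in the radial glia gate and 49.1, 125, 125 and 128 CPM in the neuronal gate. Nasp had 808, 819, 287 and 333 CPM in radial glia and kept 290, 197, 222 and 185 CPM in neurons, so that it made up between 17.5% and 29.7% of the neuronal gate's S phase counts. Casp8ap2, a nuclear protein needed for histone gene expression, had 222, 205, 119 and 71.9 CPM in radial glia and 108, 99.8, 111 and 91.7 CPM in neurons. It was higher in radial glia in both E14.5 libraries, whereas at P0 it was slightly higher there in the wild type and lower in the knockout. In contrast, Uhrf1, which directs maintenance of DNA methylation to newly copied DNA, had 121, 175, 95.8 and 45.9 CPM in radial glia and 2.34, 7.19, 1.61 and 1.53 CPM in neurons.

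**Figure D2:**
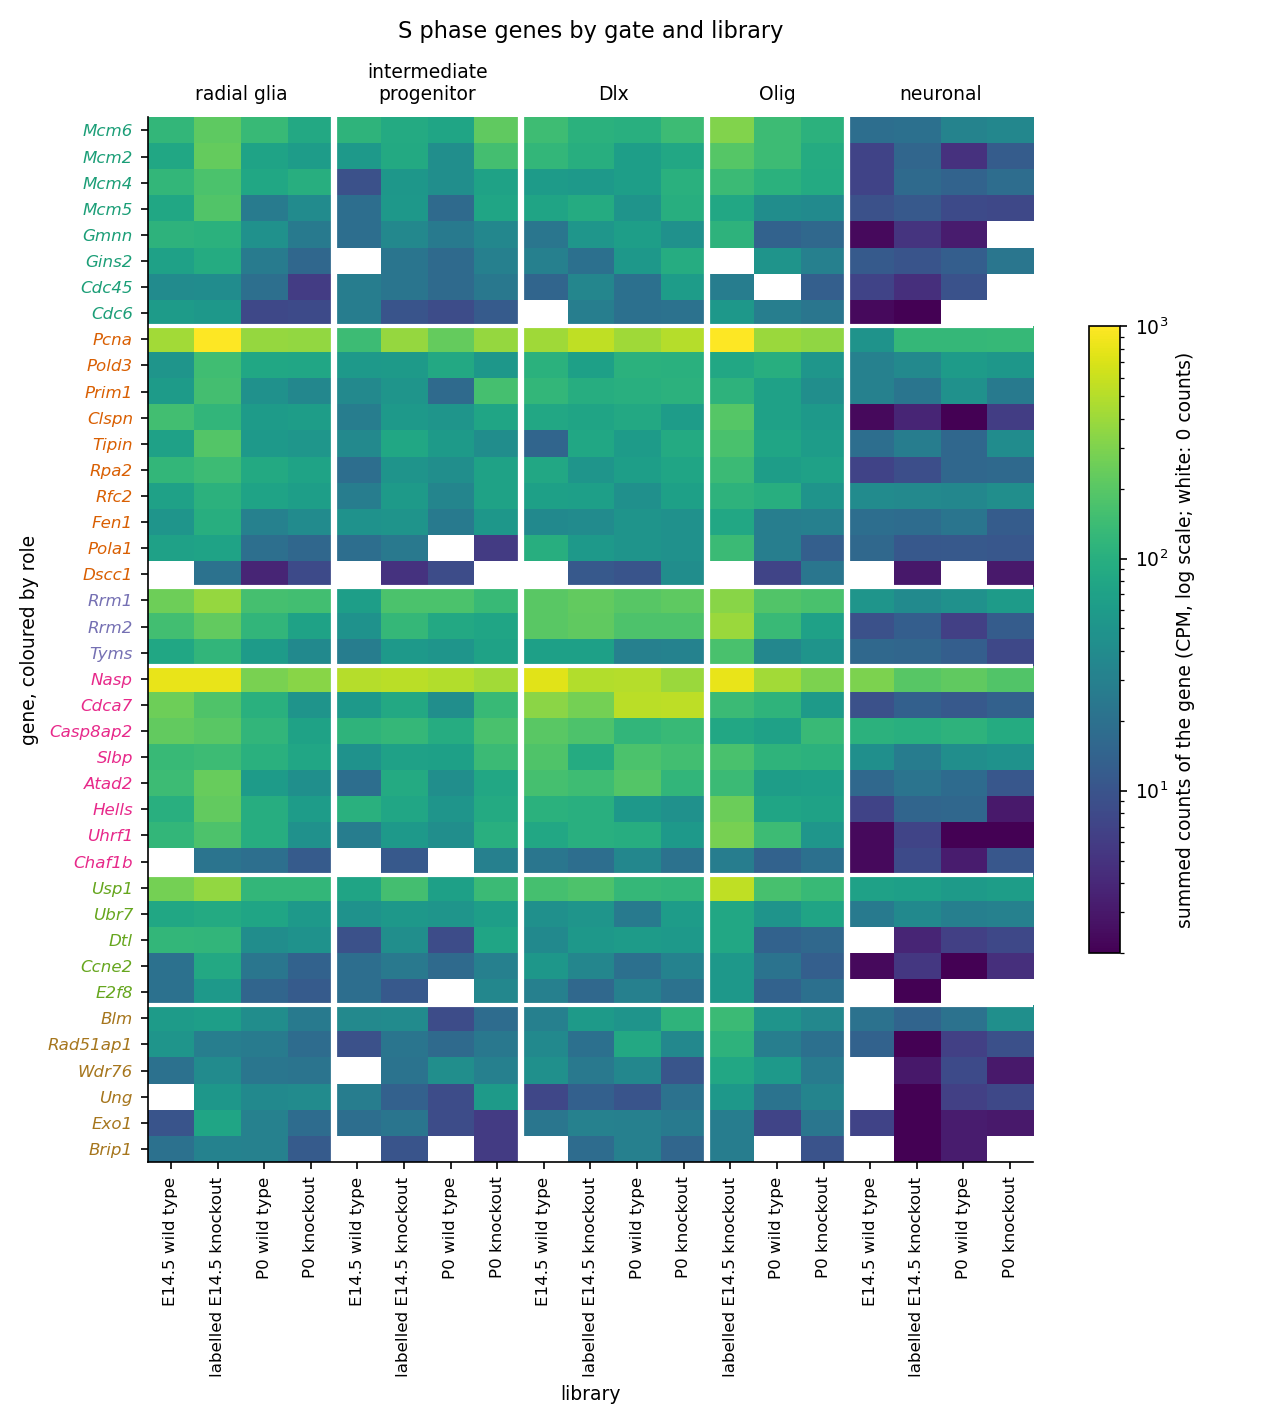
Counts of each S phase gene (rows, coloured and grouped by role) in each gate and library (columns), in CPM on a log colour scale that tops out at 1000, with white for 0 counts. Pcna and Nasp are bright in the radial glia, intermediate progenitor, Dlx and Olig gates. Cdca7 is brightest in the Dlx gate at P0, and Nasp, Pcna, Casp8ap2 and Usp1 stay visible in neurons.

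The gates of the same animals could be tested against each other, with the 4 animals as replicates and the animal as a block (edgeR quasi-likelihood test, Benjamini-Hochberg adjustment over 7575 features). Of the 40 genes, 35 passed the filter on low counts; Brip1, Chaf1b, Dscc1, E2f8 and Exo1 did not. Between radial glia and neurons, 33 were higher in radial glia and none lower, where 25.5% of all features were called higher; the median log2 fold change was 2.45 for S phase genes and 0.04 for all features. Without the filter all 40 genes entered and 38 were called higher, against 11.8% of features. By plain counting, 33 of the 40 were higher in radial glia in all 4 libraries. The same count was not made over all features, so it has no background. A list of 35 other replication genes, chosen by function (such as Mcm3, Mcm7, Lig1 and Rfc1), gave 21 higher and none lower of the 26 tested.

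By role, all 8 licensing genes were higher in radial glia than in neurons, with a median log2 fold change of 3.03. Gmnn, the licensing inhibitor geminin, differed by 4.28 (SE 0.46) and Mcm6 by 2.45 (SE 0.32). Cdc6, which recruits the helicase to origins, had 6, 40, 2 and 4 counts in radial glia and 1, 2, 0 and 0 in neurons. Its fitted 5.03 (SE 0.74, adjusted p = 2.88e-06) rests on those near-zero neuronal counts, so its size, here and in the other comparisons with neurons, depends on the fit's prior count and does not rank the gene. All 9 fork genes tested were higher, with the lower median of 1.80; Clspn, the checkpoint mediator claspin, reached 4.60 (SE 0.38), Pcna 2.26 (SE 0.23), and Rfc2, a clamp loader subunit, 1.05 (SE 0.24). Nucleotide supply genes were all higher, Rrm2 by 3.72 (SE 0.30), Tyms by 2.49 (SE 0.32) and Rrm1 by 2.23 (SE 0.24).

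Of the histone and chromatin genes, 6 of 7 tested were higher. Uhrf1 differed by 4.60 (SE 0.42), Hells, a chromatin remodeller, by 3.47 (SE 0.32), Cdca7, its partner, by 3.32 (SE 0.40) and Nasp by 1.23 (SE 0.20). Uhrf1 had very few neuronal counts outside the library labelled E14.5 knockout. The size of its difference, here and in the other comparisons with neurons, leans on those few counts. Casp8ap2, at 0.48 (SE 0.23), did not pass (adjusted p = 0.0959). The 4 cycle control genes tested were all higher, from Dtl, the receptor of a ubiquitin ligase whose substrates are bound to Pcna, at 4.07 (SE 0.48), to Ubr7 at 1.18 (SE 0.24); Usp1, a deubiquitinase of Pcna, lay at 1.65 (SE 0.24). Of the repair genes, 3 of 4 tested were higher, Ung, the uracil glycosylase, by 3.57 (SE 0.59), while the helicase Blm, at 0.95 (SE 0.41), did not pass (adjusted p = 0.0583).

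The other gates gave the same direction with fewer calls. Intermediate progenitors over neurons had 26 genes higher, where 11.4% of features were (29 of 40 without the filter, where 4.71% were), and a median of 1.84 against 0.01 for all features. Clspn (3.77), Uhrf1 (3.63) and Gmnn (3.05) were highest beside Cdc6 (fitted 3.58), and Casp8ap2 (0.19), Blm (0.27), Rfc2 (0.34) and Pola1 (0.34) lowest. Without the library labelled E14.5 knockout 17 of 28 tested genes were called, where 582 of 6659 features were. At 750 counts per barcode it was 16 of 28, where 462 of 5410 were. The Dlx gate over neurons had 31 genes higher, where 8.3% of features were (37 of 40 without the filter, where 3.97% were), and a median of 2.12 against -0.05. Cdca7 led there at 4.92 (SE 0.37, adjusted p = 2.99e-10), followed by Clspn (4.23), Uhrf1 (4.21) and Rrm2 (4.17), beside Cdc6 (fitted 4.46). The Olig gate over neurons, which rests on 3 animals, had 27 genes higher, where 16.5% of features were. Without the filter 29 of 40 were higher, where 6.51% of features were. Uhrf1 lay at 4.76 and Cdc6 at a fitted 5.51. At 750 counts per barcode 13 of 28 tested genes were called, where 544 of 5410 features were. Of the 26 other replication genes tested, 12 were higher than in neurons in intermediate progenitors, 18 in the Dlx gate and 15 in the Olig gate, and none was lower.

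**Figure D3:**
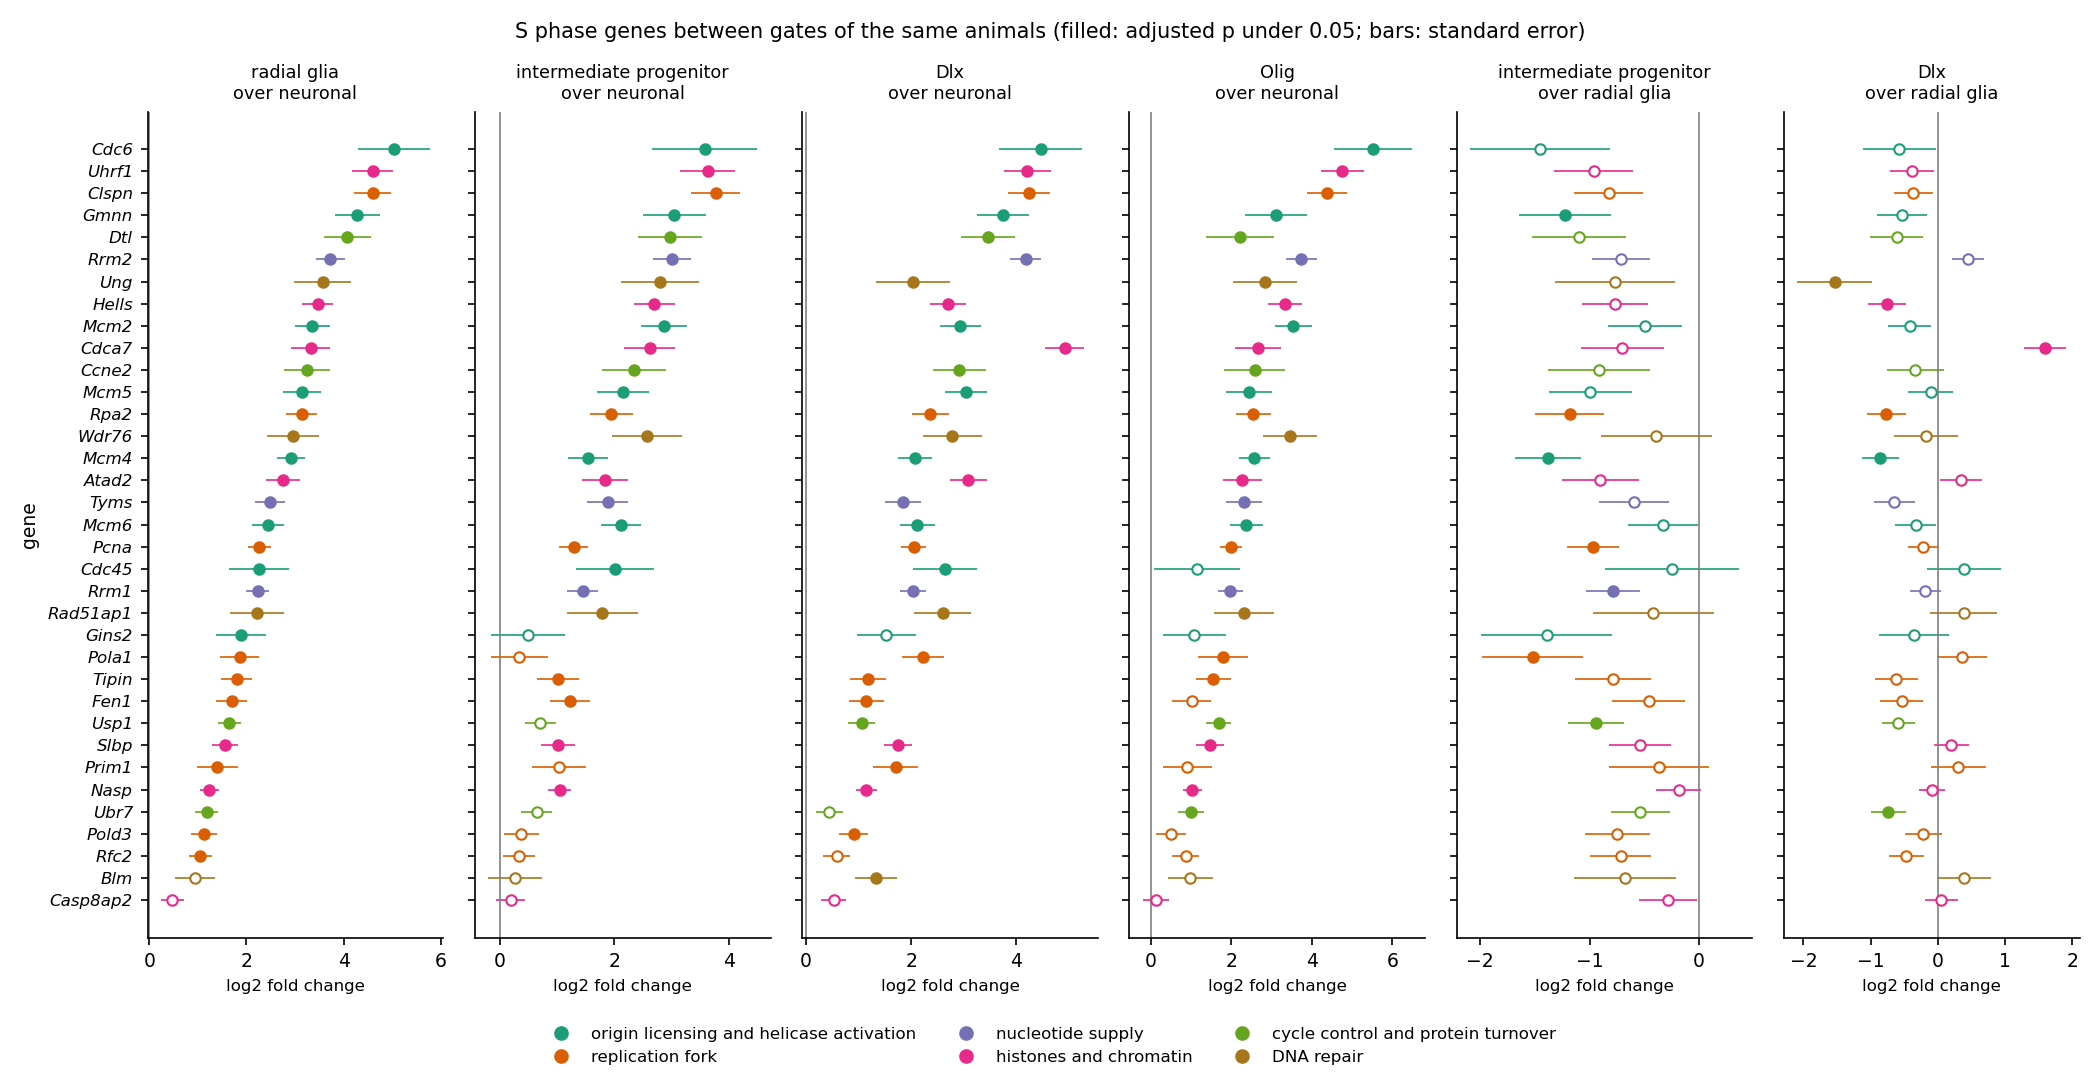
Log2 fold changes of the 35 tested S phase genes between gates of the same animals, 1 panel per comparison, with standard errors as bars and filled points for an adjusted p under 0.05 (edgeR). In the 4 comparisons with neurons every point lies above 0; between the Dlx gate and radial glia, a comparison added after the levels had been seen, Cdca7 is the only filled point above 0.

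Between intermediate progenitors and radial glia, 7 genes were lower in intermediate progenitors and none higher, where 13.3% of features were called lower. They were Pola1 (-1.52, SE 0.46), Mcm4 (-1.38, SE 0.30), Gmnn (-1.23, SE 0.42), Rpa2 (-1.18, SE 0.32), Pcna (-0.97, SE 0.24), Usp1 (-0.94, SE 0.26) and Rrm1 (-0.78, SE 0.25). The median of the 35 was -0.77, against -0.04 for all features. Pcna had 141, 376, 231 and 375 CPM in intermediate progenitors and was higher in radial glia in the first 3 libraries, but in the P0 knockout its 369 CPM in radial glia lay below the 375 CPM in intermediate progenitors. The count of called genes was not stable. Without the library labelled E14.5 knockout it was 1 of 28 tested, where 845 of 6659 features were called lower. Without the E14.5 wild type it was 3 of 35 (839 of 7908 features), and without the P0 knockout 24 of 35 (701 of 7274). Without the filter it was 13 of 40, where 5.3% of features were called. Without the animal as a block it was 2 of 35, where 713 of 7575 features were. With 1 E14.5 library left out, or without the block, the share of S phase genes lay under that of all features. The count is therefore not a firm result about S phase genes. For the whole list, intermediate progenitors had fewer S phase transcripts than radial glia in 3 libraries and more in the P0 knockout, 3464 against 2493 CPM. In that library 17 of the 40 genes had their highest level in the intermediate progenitor gate, and only 5 of the 40 were higher in radial glia in all 4 libraries. Neither count was made over all features, so neither has a background. Of the other replication genes, E2f7, Mcm3, Pold2, Rfc1 and Rpa1 were lower in intermediate progenitors, 5 of 26, and none was higher.

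Cdca7, a zinc finger protein that activates the remodeller Hells on chromatin, had 341, 275, 521 and 536 CPM in the Dlx gate against 253, 179, 103 and 49.9 CPM in radial glia, 56.3, 84.7, 42.7 and 131 CPM in intermediate progenitors, and 9.36, 13.5, 11.2 and 13.8 CPM in neurons. At P0 it was the S phase gene with the most counts in the Dlx gate, 13.0% and 12.8% of the list. It was higher in the Dlx gate than in radial glia in 4 of 4 libraries. A fit of the Dlx gate against radial glia was added because these levels had been seen, so its values for Cdca7, 1.60 (SE 0.32) and 1.15 to 2.19 over the 16 settings, restate the levels and are not independent support. In that fit Cdca7 was the only S phase gene called higher, where 15.3% of features were called higher, and 5 of 35 were called lower, where 18.3% of features were. Both shares lie under the background and are not a result about S phase genes. The counts also moved with the settings: 0 to 6 genes were called lower, with 0 without the block, with DESeq2, at 750 counts, with 1 more marker count and without the library labelled E14.5 knockout. Without that last library 5 of 28 tested genes were called higher, where 973 of 6659 features were. With 1 more marker count it was 2 of 36, where 1163 of 8093 were.

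To see how S phase genes were spread over the cell cycle within a gate, barcodes were split by their counts of a 54-gene G2 and mitosis list that shares no gene with the S phase list. In radial glia with under 8 such counts, S phase transcripts had 1846, 5298, 1677 and 1511 CPM; with 8 to 23 they had 8190, 10051, 7222 and 5349 CPM; with 24 or more, 5667, 5997, 5026 and 5215 CPM. The middle class was thus the highest in the first 3 libraries, with intervals that did not overlap those of the upper class, and the P0 knockout had middle and upper classes that overlapped. The classes were small outside the library labelled E14.5 knockout, with 14 barcodes in the middle class of the E14.5 wild type. The share of rich barcodes separated the middle from the upper class in 1 library, the labelled E14.5 knockout, at 77.1% (68.9 to 84.0) and 47.3% (40.6 to 54.1). It was 50.0% (23.04 to 76.96) and 53.8% (33.4 to 73.4) in the E14.5 wild type. At P0 it was 58.3% (36.6 to 77.9) and 38.5% (20.2 to 59.4) for wild type, then 35.7% (21.6 to 52.0) and 40% (25.7 to 55.7) for knockout, with overlapping intervals in each. The order differed by gate. In the Dlx gate the middle class had 5762, 7223, 8190 and 8033 CPM and the upper class 9727, 7458, 7807 and 7977 CPM. The upper class overlapped the middle in the last 3 libraries and lay above it in the E14.5 wild type. In intermediate progenitors the middle class had 6815, 5101, 1889 and 8167 CPM and the upper class 3067, 7205, 7500 and 6353 CPM. There the upper class lay, without overlap, higher in the labelled E14.5 knockout and P0 wild type and lower in the E14.5 wild type. In the P0 knockout the intervals of both classes overlapped. Outside the labelled E14.5 knockout these intermediate progenitor classes held only 5 to 17 barcodes.

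In the radial glia gate, barcodes with few G2 and mitosis counts separated the library labelled E14.5 knockout from the rest. Of its 132 such radial glia barcodes 42.4% (33.9 to 51.3) were rich in S phase counts, against 3.85% of 26 in the E14.5 wild type (0.0973 to 19.6), and at P0 7.26% of 124 (wild type) and 6.88% of 247 (knockout). Such barcodes made up 39.4%, 27.2%, 71.3% and 74.0% of the radial glia gate. Their median depth before thinning was 7287.5, 2493.5, 5725 and 5383 counts, and their radial glia markers summed to 9821, 8505, 30452 and 28929 CPM. Depth thus moved with this difference at E14.5, and its part in it was not tested. In the Dlx and intermediate progenitor gates the labelled E14.5 knockout did not stand apart in this class. There 3.85%, 3.54%, 2.47% and 6.33% of Dlx barcodes were rich, and 0%, 4.93%, 6.90% and 10.1% of intermediate progenitor barcodes. The Olig gate of that library held only 5 such barcodes.

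Between the middle and upper classes the genes did not move as a block. In radial glia of the library labelled E14.5 knockout (131 barcodes against 222), 33 genes had enough counts. Of these 29 were lower in the upper class, where 51.5% of features were. For 16 the interval lay below 0, where 6.02% of features did, and the median of all features was -0.01. Mcm6 was lowest: it had 438 CPM in the middle and 87.1 CPM in the upper class, a log2 ratio of -2.33 (-2.99 to -1.71), Ccne2, a cyclin of the G1 to S transition, was at -2.10 (-3.07 to -1.21), Cdc6 at -1.55 (-2.77 to -0.40), Uhrf1 at -1.48 (-2.07 to -0.90) and Pcna at -1.24 (-1.49 to -0.998). The intervals of the nucleotide supply genes held 0, with Rrm1 at 0.39 (-0.02 to 0.80), Rrm2 at -0.26 (-0.74 to 0.24) and Tyms at -0.19 (-0.91 to 0.54). In the Dlx gate of that library 31 genes were measured, 4 with an interval below 0 and 5 with one above. This was not counted over all features, so it has no background. Lower in the upper class were Mcm4 (-1.47), Mcm6 (-1.22), Uhrf1 (-0.77) and Pcna (-0.55). Higher were Usp1 at 1.34 (0.78 to 1.93), Rrm2 at 0.93 (0.50 to 1.38), Atad2 at 0.90 (0.36 to 1.47), Cdca7 at 0.75 (0.34 to 1.19) and Rrm1 at 0.51 (0.07 to 0.96). In the P0 wild type, with 24 and 26 radial glia barcodes, Pcna lay at -1.23 (-2.12 to -0.39), Nasp at -0.96 and Rrm1 at 0.27 (-0.86 to 1.43). In the P0 knockout, with 42 and 45, Pcna lay at -0.77 (-1.41 to -0.16), but 3 of the 5 genes measured lay above 0. Among them were Usp1 at 1.22 (0.11 to 2.44) and Nasp at 0.60 (-0.03 to 1.25). This count was not made over all features, so it has no background.

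**Figure D4:**
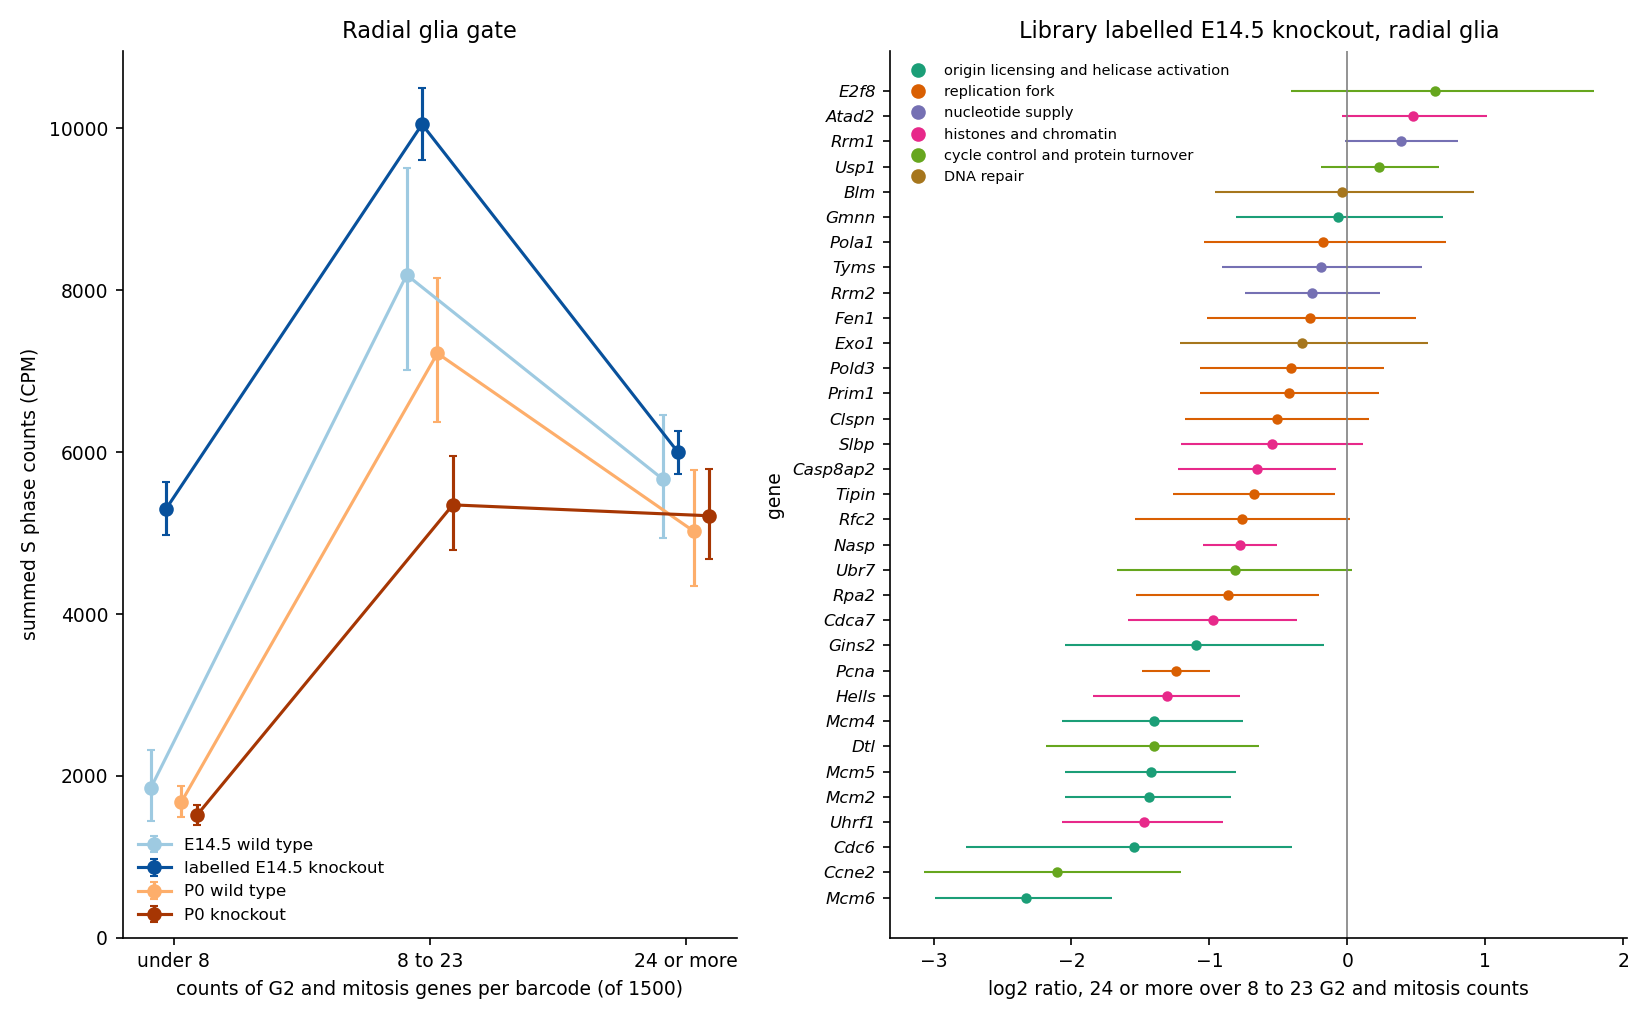
Left, S phase CPM of radial glia barcodes by their counts of G2 and mitosis genes, 1 line per library, with exact Poisson 95% intervals; right, the log2 ratio of each S phase gene between barcodes with 24 or more and with 8 to 23 such counts in the library labelled E14.5 knockout, with conditional binomial 95% intervals. S phase CPM is highest at 8 to 23 counts in 3 libraries, of which only the labelled E14.5 knockout has shares of rich barcodes with intervals that do not overlap between that class and the upper one; on the right Mcm6 and Ccne2 lie lowest and Rrm1, Atad2, Usp1 and E2f8 lie above 0.

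The design also sets knockout beside wild type at each age. With 1 animal per group there is no test across animals, so ratios are given with conditional binomial 95% intervals that cover counting error only, and counts from the same barcode are not independent. Genes were measured where the 2 sums held at least 30 counts, and a log2 ratio of 1 or more in size was counted as past the fold. At E14.5 the library labelled knockout had more S phase transcripts than wild type in radial glia, 6902 against 4697 CPM, a log2 ratio of 0.56 (0.42 to 0.70), and in intermediate progenitors, 3008 against 1953 CPM, 0.62 (0.42 to 0.83). In the Dlx gate the ratio was -0.10 (-0.23 to 0.03) and in neurons 0.00 (-0.15 to 0.15). Tsku counts were present in both libraries, and the genotype behind the label stays unsettled here.

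In E14.5 radial glia, 30 of 36 measured genes lay above 0, where 57.2% of features did. Past 1 were 10, where 12.1% of features were. The median of the measured genes was 0.55 and that of all features 0.12. Pcna had 1027 against 424 CPM, a ratio of 1.28 (0.83 to 1.76). Exo1, an exonuclease of mismatch repair, lay at 2.93 (0.39 to 8.26) and Ccne2 at 2.08 (0.16 to 5.15), on wild-type sums of 1 and 2 counts; Pold3 lay at 1.57 (0.30 to 3.22) and Mcm2 at 1.50 (0.49 to 2.73). Ung had 39 counts against 0, a log2 ratio of 0.82 once the wild-type sum is set to a floor of 3 counts. That value depends on the floor and is not a lower limit. Nasp lay at 0.02 (-0.32 to 0.38), and Cdca7 (-0.50, -1.12 to 0.18), Clspn (-0.32), Cdc6 (-0.14) and Casp8ap2 (-0.12) were lowest. Other replication genes showed 24 of 29 above 0, against the same 57.2% of features. The G2 and mitosis list lay at 0.19 (0.11 to 0.27), radial glia markers at 8142 against 11162 CPM, erythroid markers at 275 against 172 CPM and median depth at 2953 against 8066.5; their part in the difference was not tested.

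In E14.5 intermediate progenitors 25 of 27 measured genes lay above 0, where 55.8% of features did. Past 1 were 12, where 10.9% of features were. Pcna had 376 against 141 CPM, 1.42 (0.67 to 2.27), and the highest were Mcm4 (2.51, -0.04 to 7.85), Atad2 (2.26, 0.35 to 5.33), Dtl (2.22, -0.36 to 7.56) and Mcm5 (1.55, -0.39 to 4.64), all on wild-type sums of 1 or 2 counts. Hells (-0.40) and Mcm6 (-0.33) were lowest, with Blm and Pold3 at 0.09. The G2 and mitosis list lay at 0.43 in this gate, erythroid markers at 336 against 93.9 CPM and median depth at 2743 against 7940; their part was not tested. With all counts and no thinning the list ratio was 0.24. In the Dlx gate 3 of 33 genes were past 1, where 10.7% of features were: Tipin (2.40, 0.50 to 5.47), Gmnn (1.21, -0.42 to 3.53) and Cdc45 (1.18, -0.78 to 4.28), on wild-type sums of 2 or 3 counts. Slbp, which binds histone mRNA, was lowest at -0.97 (-1.63 to -0.27), followed by Wdr76 (-0.87), Pola1 (-0.81) and Rpa2 (-0.69), and Blm stood at 0.96.

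At P0 the differences were smaller in radial glia and ran the other way. The share of rich radial glia barcodes was 15.0% (11.3 to 19.3) in the knockout and 19.0% (13.4 to 25.6) in the wild type. These intervals overlap. The knockout had 2493 CPM and the wild type 2943 CPM, a log2 ratio of -0.24 (-0.37 to -0.11). Of 24 measured genes 19 lay below 0, where 52.7% of features lay above 0. Past 1 downward were Uhrf1, 45.9 against 95.8 CPM (-1.06, -1.94 to -0.18), and Cdca7, 49.9 against 103 CPM (-1.05, -1.90 to -0.21), 2 of 24 where 1.98% of features were. Casp8ap2 and Rrm2 lay at -0.73, and the highest were Mcm4 (0.28), Nasp (0.21), Dtl (0.18) and Clspn (0.06). Pcna was at -0.02 (-0.39 to 0.34). In this gate the G2 and mitosis list lay at -0.13 (-0.21 to -0.05), oligodendrocyte precursor markers at 435 against 238 CPM, erythroid markers at 226 against 149 CPM and endothelial and mural markers at 55.9 against 22.99 CPM. Their part was not tested. The Olig gate also lay lower in the knockout, -0.29 (-0.46 to -0.12), with 14 of 17 genes below 0, where 51.5% of features lay above 0. Only Uhrf1 was past 1 (-1.43, -2.47 to -0.40), where 1.84% of features were. Rrm2 (-0.96), Cdca7 (-0.93) and Pold3 (-0.91) followed, and Casp8ap2 (0.93), Ubr7 (0.61), Rpa2 (0.12) and Slbp (-0.06) were highest. The share of rich Olig barcodes was 17.8% (12.8 to 23.8) in the knockout and 23.4% (15.3 to 33.3) in the wild type. These intervals overlap as well. Oligodendrocyte precursor markers summed to 3221 CPM in the knockout and 2525 CPM in the wild-type Olig gate. Their part was not tested.

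Intermediate progenitors at P0 had more in the knockout, 3464 against 2171 CPM, a ratio of 0.67 (0.46 to 0.89), from 112 and 78 barcodes. Only 8 genes had enough counts, 6 of them above 0, where 49.7% of features were. At or past 1 were 4, where 3.12% of features were. They were Mcm2, 155 against 42.7 CPM (1.86, 0.45 to 3.59), Mcm6, 220 against 76.9 CPM (1.52, 0.44 to 2.75), and Slbp and Usp1, both 137 against 68.4 CPM (1.00, -0.21 to 2.37). Casp8ap2 (0.83), Pcna (0.70), Nasp (-0.21) and Rrm1 (-0.38) were the others. The share of rich barcodes was 21.4% (14.2 to 30.2) against 14.1% (7.26 to 23.8), and these intervals overlap. Radial glia markers in that gate summed to 2506 CPM in the knockout and 1530 CPM in the wild type, and their part was not tested. The Dlx gate lay at 0.06 (-0.08 to 0.20), with Blm (1.19, 0.05 to 2.43), Mcm4 (0.68), Mcm6 (0.49) and Pcna (0.28) highest and Uhrf1 (-0.73), Atad2 (-0.67), Nasp (-0.36) and Slbp (-0.17) lowest, and neurons lay at 0.00.

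Between the ages, the wild-type radial glia gate had fewer S phase transcripts at P0, 2943 against 4697 CPM, a log2 ratio of -0.67 (-0.84 to -0.51). The comparison shares its libraries with those above. Of 15 measured genes 14 lay below 0, where 48.3% of features lay above 0. Past 1 downward were 5, where 6.68% of features were: Nasp, 287 against 808 CPM (-1.49, -1.97 to -1.02), Clspn (-1.31), Cdca7 (-1.29), Atad2 (-1.21) and Usp1 (-1.15). Mcm6 (0.10), Hells (-0.08), Pcna (-0.18, -0.71 to 0.38) and Uhrf1 (-0.34) were highest. The G2 and mitosis list lay lower still, at -1.09, and the radial glia markers higher, at 27422 against 11162 CPM. Wild-type intermediate progenitors lay at 0.15 (-0.12 to 0.42), with Pcna at 0.71 (-0.25 to 1.73) and Nasp at -0.03 the only genes with enough counts. The Dlx gate lay at -0.09 (-0.25 to 0.06), with Cdca7 (0.61, 0.10 to 1.15) highest and Casp8ap2 (-0.77) lowest, and neurons at 0.12.

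The libraries labelled knockout gave a larger gap between the ages in radial glia, -1.47, with all 37 measured genes below 0, where 45.4% of features lay above 0. Past 1 downward were 27, where 12.2% of features were. Cdc45 (-5.14 to -1.10) and Cdc6 (-4.73 to -1.32) lay at -2.78, Ccne2 at -2.61 and Gins2 at -2.53, whereas Ung (-0.43), Ubr7 (-0.68), Rad51ap1 (-0.68) and Rfc2 (-0.72) differed least, and Pcna lay at -1.48 (-1.72 to -1.24). This comparison joins the library whose Tsku counts went against its label to the P0 knockout, in which Tsku was at 0. The G2 and mitosis list lay at -1.41 (-1.47 to -1.36) in radial glia, radial glia markers at 26132 against 8142 CPM and oligodendrocyte precursor markers at 435 against 8.25 CPM; their part was not tested. The Dlx gate lay at 0.07, with Gins2 (2.23, 1.23 to 3.21) and Cdca7 (0.97, 0.63 to 1.30) highest and Hells and Tyms (both -1.12) lowest.

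**Figure D5:**
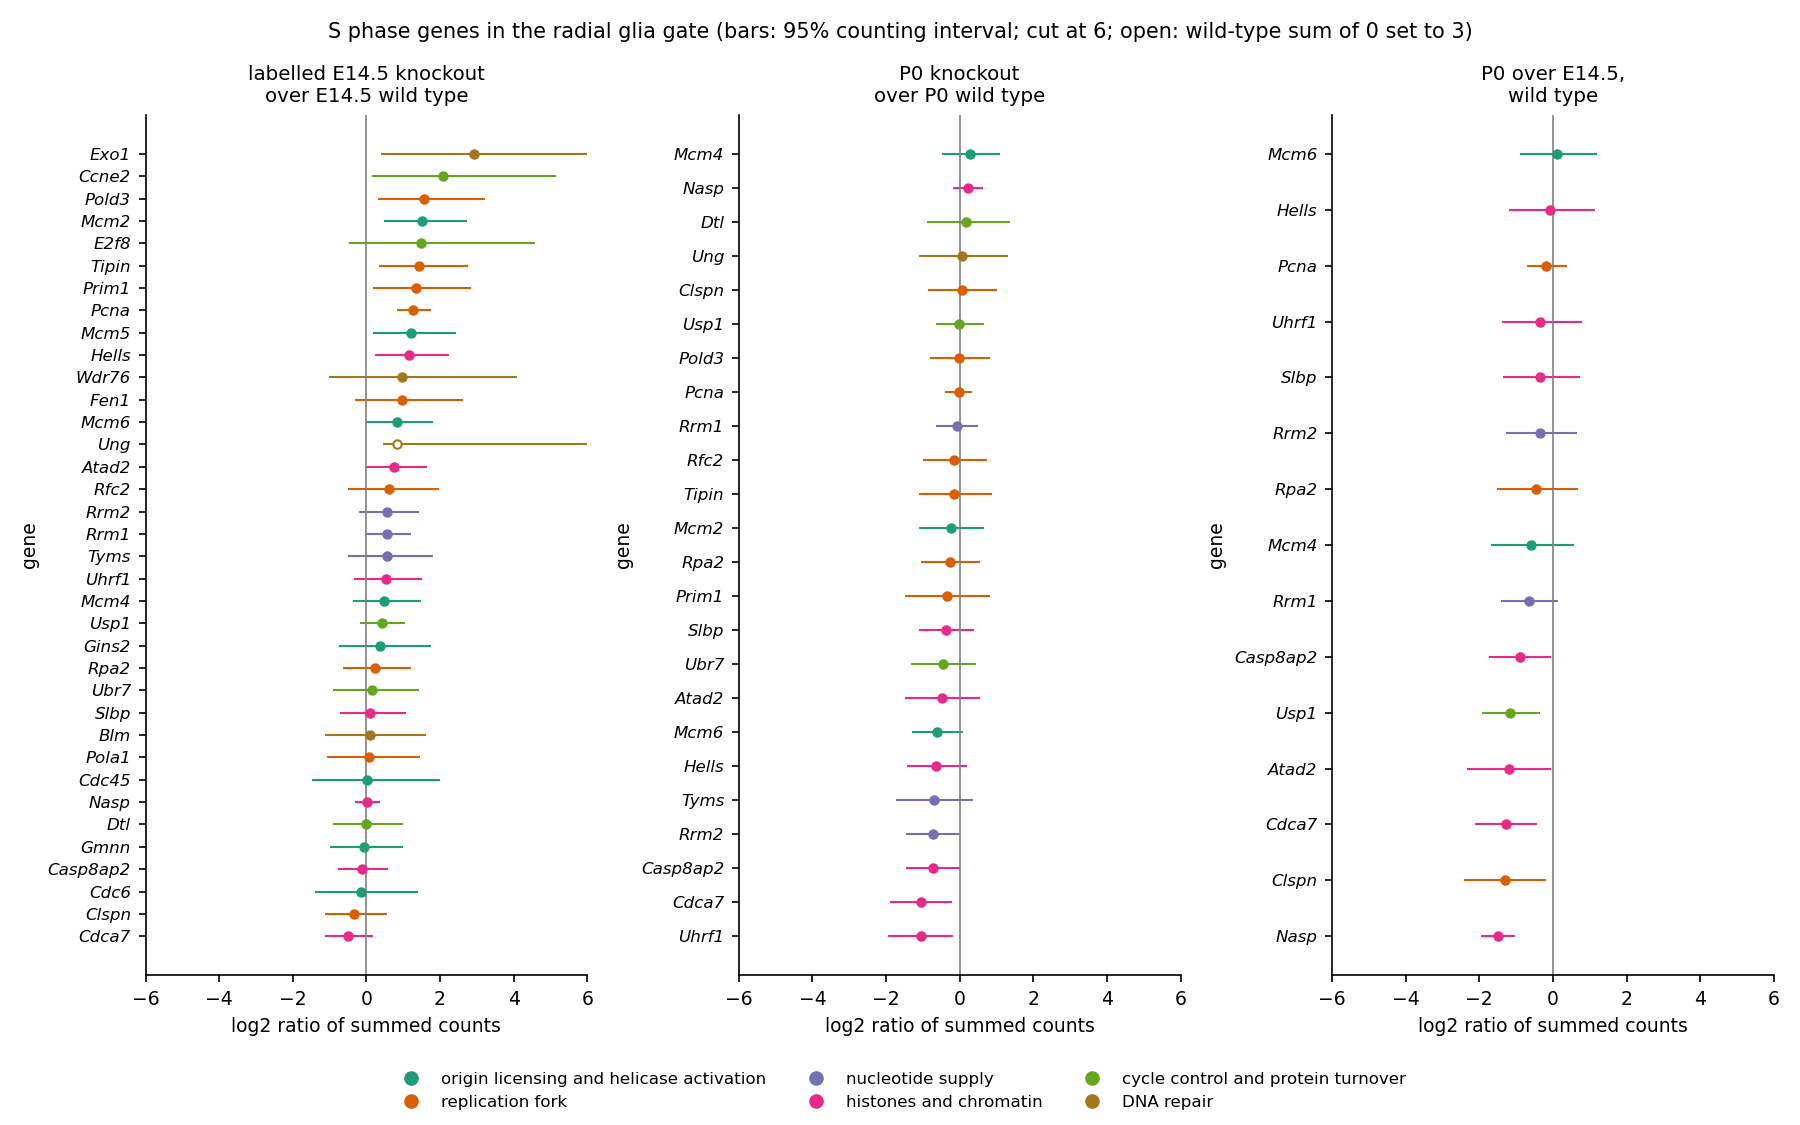
Log2 ratios of summed counts of each measured S phase gene in the radial glia gate for 3 comparisons of libraries, with conditional binomial 95% intervals that cover counting error only and are cut at 6; the open point is a gene with a wild-type sum of 0 set to 3 counts. Most genes lie above 0 in the library labelled E14.5 knockout and below 0 in the P0 knockout and in the older wild type.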

How the data were processed

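Single-cell RNA sequencing was done on cerebral cortex of 4 mice, with trypsin dissociation and 15000 cells per sample coupled to the beads of the Asteria kit, per the labels' protocols. The authors deposited raw counts per gene and barcode. The submitters' processing notes name FastQC 0.12.1, Seurat 5, R 4.3.2 and the build GRCm39; not given in the sources used here are the aligner, the counting program and any collapsing of reads to molecules. The libraries held 5607941, 14423600, 6136897 and 8959784 counts (E14.5 wild type, labelled E14.5 knockout, P0 wild type, P0 knockout).

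Barcodes needed 500 counts, 300 genes and no more than 10% mitochondrial counts, and were thinned to 1500 counts; shallower ones were left out, 141 of them in the library labelled E14.5 knockout. Gates asked for 4 radial glia, 2 intermediate progenitor, 2 Dlx, 2 Olig or 4 neuronal marker counts, thresholds set after marker counts had been seen. Olig took precedence over intermediate progenitor, and Olig, Dlx and intermediate progenitor over radial glia and neuronal. Barcodes with 4 or more counts of another cell type's markers were set aside, as were those meeting both the Olig and Dlx, the Dlx and intermediate progenitor, or the radial glia and neuronal gates. No doublet caller was run, and doublets may remain.

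Summed counts per gate and library (19 sums of at least 20 barcodes, 11 residual degrees of freedom) were compared with edgeR 4.0.16 in R 4.3.3: quasi-likelihood test, TMM, filterByExpr, adjusted p under 0.05. Gates were paired because they come from the same animal. DESeq2 1.42.0 was an alternative. Shares have exact binomial (Clopper-Pearson) intervals, levels exact Poisson intervals and ratios conditional binomial intervals, all at 95%. The edgeR step was tested on simulated data and recovered 4-fold changes. Python 3.11.15, numpy 2.4.6, scipy 1.17.1 and pandas 2.3.3 were used. Genes given with values are the 8 with the most counts and the 4 highest and 4 lowest ratios of a comparison; others were picked by role after their values had been seen. The members and lists were chosen with earlier results of these data known.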

Additional observations from a re-analysis of the deposited data

Results flagged for a closer look

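The S phase list in radial glia lay at 0.56 on the log2 scale in the library labelled E14.5 knockout over the E14.5 wild type, and at -0.24 in the P0 knockout over the P0 wild type. It is listed here because the 2 ages went opposite ways under the same pair of labels. The difference between the ages was not tested, since each group is 1 animal, and Tsku counts went against the label of the E14.5 library. At P0 the shares of rich radial glia barcodes had overlapping intervals.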

How the results depend on the processing

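Every comparison was repeated under the alternatives, 1 choice at a time. Over 16 settings the number of S phase genes called higher than in neurons ran from 22 of 28 tested to 40 of 40 in radial glia. The range was 16 of 28 to 35 of 40 in intermediate progenitors and 23 of 28 to 40 of 40 in the Dlx gate. In the Olig gate it was 13 of 28 to 37 of 40, and none was called lower in any. In that order of gates, features called higher were 1613 of 6659, 462 of 5410, 510 of 6659 and 544 of 5410 at the low ends. At the high ends they were 3606, 2062, 1498 and 2586 of 11717. For intermediate progenitors over neurons it was 16 of 28 at 750 counts per barcode and 17 of 22 with only the 2 gates in the fit. It was 17 of 28 to 27 of 39 when 1 library was left out. For Olig over neurons it was 13 of 28 at 750 counts. The count lower in intermediate progenitors than in radial glia was 13 of 40 without the filter and 2 of 35 with no replicate block. It was 4 of 40 with DESeq2, 4 of 28 at 750 counts and 12 of 40 with all counts. Features called lower in these settings were 1207 of 22769, 713 of 7575, 928 of 14260, 530 of 5410 and 2029 of 11717. With another random seed it was 12 of 36 (1094 of 8572 features), and without the 5% deepest barcodes 4 of 34 (989 of 8045). Under the stricter cell filter (1000 counts, 500 genes, 5% mitochondrial) it was 11 of 37 (1064 of 8227). It ran from 1 of 28 to 24 of 35 when 1 library was left out. The replicate block, which pairs gates of the same animal, also moved the count lower in the Dlx gate than in radial glia from 5 to 0 and moved no other of these counts by over 1.5 times. That fit, added after the levels had been seen, gave 1 to 5 genes higher and 0 to 6 lower over the settings.

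Ratios of the list kept their sign in all 8 settings for radial glia in the 4 comparisons, for intermediate progenitors at both ages between knockout label and wild type, and for Olig at P0. In E14.5 radial glia the ratio ran from 0.39 (750 counts) to 0.67, in E14.5 intermediate progenitors from 0.24 (all counts) to 0.91 (1 more marker count), in P0 radial glia from -0.39 (all counts) to -0.11, in the P0 Olig gate from -0.58 (deepest barcodes out; -0.49 under the stricter filter) to -0.23, and in wild-type radial glia between the ages from -0.86 (deepest out) to -0.34 (all counts). For wild-type intermediate progenitors between the ages it was -0.20 with all counts and 0.59 with 1 more marker count. The E14.5 Dlx ratio was 0.0465 at 750 counts, 0.0474 with another seed and 0.0513 with 1 more marker count, and the wild-type Dlx ratio between the ages 0.14 at 750 counts. The E14.5 neuronal ratio was 0.19 without Nasp. For the knockout labels, intermediate progenitors reversed between the ages with another random seed, to -0.0272; the cause was not tested.

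Levels of the list (CPM) outside the counting interval were as follows. At 750 counts: radial glia 6617 (labelled E14.5 knockout), intermediate progenitor 2817 (labelled E14.5 knockout), Dlx 4745 (labelled E14.5 knockout), 5048 (P0 wild type), 4784 (P0 knockout), Olig 2842 (P0 wild type), 2424 (P0 knockout). With all counts: radial glia 3522 (P0 wild type), 2693 (P0 knockout), intermediate progenitor 2629 (E14.5 wild type), 4190.0 (P0 knockout), Dlx 4941 (E14.5 wild type), 4256 (labelled E14.5 knockout), 4675 (P0 wild type), 4629.8 (P0 knockout), Olig 3791 (P0 wild type), 3029.7 (P0 knockout). With another seed: intermediate progenitor 2971 (P0 knockout), Dlx 4162 (labelled E14.5 knockout). With 1 more marker count: intermediate progenitor 1614 (E14.5 wild type), Dlx 4549 (labelled E14.5 knockout), 4417 (P0 wild type), 4772 (P0 knockout), Olig 2391 (P0 knockout). Without the deepest barcodes: radial glia 2561 (P0 wild type), Olig 3576 (P0 wild type), 2397 (P0 knockout), neuronal 1027 (labelled E14.5 knockout). Under the stricter filter: radial glia 6661 (labelled E14.5 knockout), Dlx 4161 (labelled E14.5 knockout), 4321 (P0 wild type), Olig 3958 (P0 wild type). Without Nasp, lower by construction: radial glia 3889 (E14.5 wild type), 6082 (labelled E14.5 knockout), 2655 (P0 wild type), 2159.7 (P0 knockout), intermediate progenitor 1455 (E14.5 wild type), 2478 (labelled E14.5 knockout), 1684 (P0 wild type), 3042 (P0 knockout), Dlx 3538 (E14.5 wild type), 3503 (labelled E14.5 knockout), 3519 (P0 wild type), 3797 (P0 knockout), Olig 2844 (P0 wild type), 2373 (P0 knockout), neuronal 685 (E14.5 wild type), 779 (labelled E14.5 knockout), 835 (P0 wild type), 872 (P0 knockout). The number of barcodes limits single genes: 66 in the E14.5 wild-type radial glia gate and 24 in the Olig gate of the labelled E14.5 knockout.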
